A study of Mus musculus with 4 samples.

Results

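The interferon regulatory factors (IRFs) are a family of transcription factors, and the 8 genes Irf1, Irf2, Irf3, Irf4, Irf5, Irf7, Irf8 and Irf9 are described here by the peaks they carried in CUT&Tag of mouse haematopoietic stem cells. They were taken as a named family, 8 of 21779 protein-coding genes, and a peak was assigned to a gene when it shared at least 1 bp with the gene body extended by 1 kb on each side in GRCm38. CUT&Tag uses an antibody to bring a transposase to chromatin, where it inserts sequencing adapters. All 4 libraries were made from stem cells that had been isolated from bone marrow, and every mouse was wild type for Ppp2ca. In 2 the antibody was against PPP2CA, which is the catalytic part of PP2A, a phosphatase of serine and threonine, and in 2 it was control immunoglobulin G (IgG). The question was which genomic sites PPP2CA occupies. The labels give no age, sex or number of animals, and they do not tie the 2 libraries of an antibody to different animals, so differences between them may be technical.

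IRF proteins bind DNA through a conserved N-terminal domain that reads GAAA repeats, the core of the interferon-stimulated response element (ISRE). Irf3, Irf5 and Irf7 encode the factors that sensor pathways switch on by phosphorylation to induce interferon genes, and PP2A has been described as a phosphatase of IRF3. IRF9 joins STAT proteins in the complex that answers type I interferon, and IRF1 is itself induced by interferon. In blood formation, IRF2 is known to shield stem cells from interferon-driven exhaustion, IRF8 directs monocyte and dendritic cell fate, and IRF4 acts in lymphocytes.

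The reference promoters of the members on which the results turn are shown first, so that the peaks can be read against them. They come from RefSeq on GRCm38.p6, which lists 11 starts for the 8 genes. Each line runs 5′ to 3′ along the gene's strand and ends at the base before the gene start. The windows are chr11:53769764-53770013 (Irf1, plus strand), chr8:46739495-46739744 (Irf2, plus), chr8:120736108-120736357 (Irf8, plus), chr13:30748983-30749232 (Irf4, plus), chr7:141266500-141266674 (Irf7, minus) and chr14:55603735-55603984 (Irf9, plus). For Irf7 the 75 bases of the window that lie within the gene are left out. Capitals mark matches, on either strand, to the ISRE core GAAANNGAAA, the STAT-binding GAS element TTCNNNGAA or the NF-kappaB core GGGANNNNCC. The first 4 are shown because they hold such matches, and the last 2 because they are poor in CpG.
Irf1 promoter: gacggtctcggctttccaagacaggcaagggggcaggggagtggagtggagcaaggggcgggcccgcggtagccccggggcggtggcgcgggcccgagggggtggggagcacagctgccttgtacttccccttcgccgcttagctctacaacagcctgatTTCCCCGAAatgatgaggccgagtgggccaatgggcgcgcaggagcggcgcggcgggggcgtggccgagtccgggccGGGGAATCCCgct
Irf2 promoter: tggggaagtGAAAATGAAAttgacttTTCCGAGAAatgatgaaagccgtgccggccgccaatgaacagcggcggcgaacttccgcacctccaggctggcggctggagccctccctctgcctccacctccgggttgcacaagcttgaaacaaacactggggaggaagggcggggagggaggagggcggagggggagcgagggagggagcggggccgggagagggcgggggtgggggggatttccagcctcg
Irf8 promoter: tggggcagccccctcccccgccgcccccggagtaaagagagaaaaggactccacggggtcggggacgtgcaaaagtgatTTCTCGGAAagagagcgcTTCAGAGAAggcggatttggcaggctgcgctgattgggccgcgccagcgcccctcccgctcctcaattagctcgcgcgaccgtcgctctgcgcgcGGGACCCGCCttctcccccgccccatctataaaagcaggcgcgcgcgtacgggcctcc
Irf4 promoter: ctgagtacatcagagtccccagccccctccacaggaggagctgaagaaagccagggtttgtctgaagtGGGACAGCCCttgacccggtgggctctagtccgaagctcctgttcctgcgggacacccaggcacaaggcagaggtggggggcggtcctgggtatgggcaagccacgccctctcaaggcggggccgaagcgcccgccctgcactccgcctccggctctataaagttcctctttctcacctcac
Irf7 promoter: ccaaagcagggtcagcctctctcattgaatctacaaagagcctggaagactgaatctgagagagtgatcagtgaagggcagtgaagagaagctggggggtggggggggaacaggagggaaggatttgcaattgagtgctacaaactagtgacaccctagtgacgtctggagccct
Irf9 promoter: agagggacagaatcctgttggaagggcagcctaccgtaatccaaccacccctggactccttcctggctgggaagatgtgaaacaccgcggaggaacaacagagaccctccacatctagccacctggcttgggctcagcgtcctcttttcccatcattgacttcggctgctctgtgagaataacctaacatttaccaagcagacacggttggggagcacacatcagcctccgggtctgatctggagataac

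PPP2CA peaks were present at 6 of the 8 IRF genes in both libraries, and at the other 2 in one library. Irf1, Irf2, Irf3, Irf5, Irf7 and Irf9 had a peak in both PPP2CA lists, and Irf4 and Irf8 in the list of PPP2CA 1 alone. Of all protein-coding genes, 47.1% had a peak in both lists, 51.5% in PPP2CA 1, 52.4% in PPP2CA 2 and 9.8% in exactly 1 list. A gene is called here when both lists hold a peak. An exact permutation test of 2 libraries against 2 has a smallest two-sided p of 0.333, so no p is given. The share of all genes is printed as the background for reading each count, and 8 genes are too few for a count to carry more than a description.

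The libraries differed widely in depth. The PPP2CA lists held 16811 and 17686 peaks and the IgG lists 561 and 310. The lowest local background in a list, read as its genome-wide level, was 0.784 and 0.80 fragments for PPP2CA and 0.0839 and 0.0833 for IgG, so the PPP2CA libraries stood 9.34 to 9.61 times higher. As for the labelled cell type, PPP2CA peaks do not measure expression: of 7 stem cell markers Kit and Mecom were called, and Cd34, Ly6a and Slamf1 had no PPP2CA peak. Cd3d was called of 5 T cell markers, none of 4 B cell markers, S100a9 of 7 granulocyte and monocyte markers and Klf1 of 4 erythroid markers.

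Irf1, an activator of interferon-stimulated genes and a growth suppressor, carried the highest summit of the family. The gene lies on chromosome 11 at 53770014 to 53778374 (8.4 kb, plus strand). Its best peak, by −log10 q, ran from 53769455 to 53770873 in PPP2CA 1 and from 53769473 to 53771232 in PPP2CA 2. The number of fragments over the summit, recovered from the deposited fold and p, was 114 (95% exact Poisson interval 94.0 to 137) and 119 (98.6 to 142). These intervals cover counting error only. The authors' fold over the local background was 7.42 and 7.03, and the peak ranked 928 of 16811 and 1026 of 17686 by −log10 q. That put Irf1 at place 1005 among the 10249 called genes, within the best 9.81%. The summits lay 84 and 148 bp downstream of the gene start, and the whole promoter shown above was inside the peak of each library. A further PPP2CA 1 peak of 21 fragments had its summit 561 bp beyond the gene end and was not found in PPP2CA 2.

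**Figure D1:**
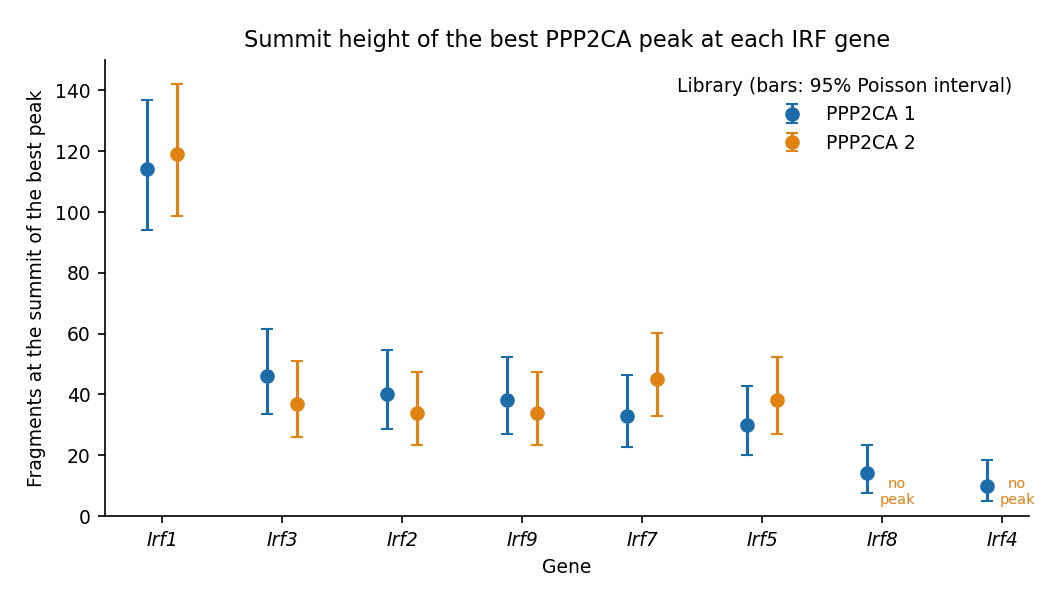
Fragments at the summit of the best PPP2CA peak (y axis) at each of the 8 IRF genes (x axis), 1 point per library with its 95% exact Poisson interval. Irf1 stands at 114 and 119 fragments, 5 genes lie between 30 and 46, and Irf8 and Irf4 have a peak in PPP2CA 1 alone, at 14 and 10.

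Behind Irf1, the other 5 called members formed a narrow band. Irf3 had 46 and 37 fragments in PPP2CA 1 and 2, Irf2 had 40 and 34, Irf9 had 38 and 34, Irf7 had 33 and 45, and Irf5 had 30 and 38. The range of Irf1 over the libraries did not overlap that of any other member, whereas the ranges of these 5 all overlapped each other, so their order is not resolved. For each of the 6 genes the Poisson intervals of the 2 libraries also overlapped. After scaling to the genome backgrounds, PPP2CA 2 stood at 0.788 (Irf3) to 1.34 (Irf7) times PPP2CA 1.

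By fold over local background the order was another one. Irf9 led in PPP2CA 2 with 7.53 (7.0 in PPP2CA 1), Irf1 led in PPP2CA 1 with 7.42, and Irf3 had 7.23 and 5.75. Irf2 (6.18 and 4.83) and Irf5 (5.47 and 5.86) followed, and Irf7 had 4.43 and 5.30. The fold divides by the local background, which was 14.5 and 16.1 fragments at Irf1 and 3.65 to 7.68 at the other 5. The median summit of the 6 called members was 39.0 and 37.5 fragments, against 28.0 and 31.0 over all called genes, and their median fold 6.59 and 5.81, against 7.01 and 6.96.

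**Figure D2:**
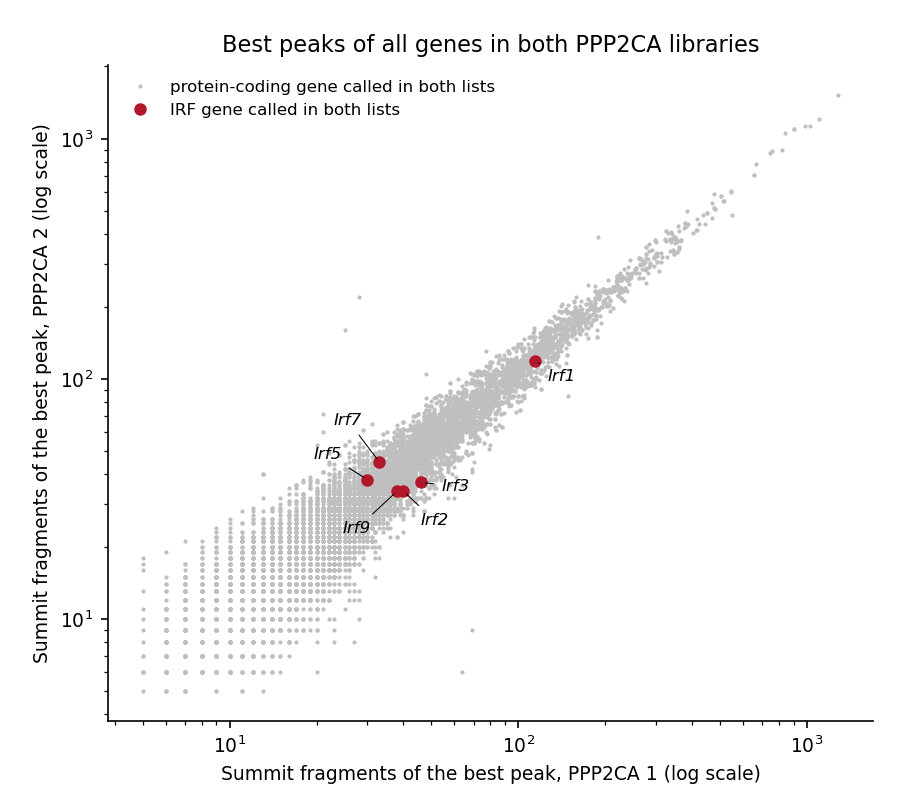
Summit fragments of the best peak in PPP2CA 1 (x axis) and PPP2CA 2 (y axis), both on log scales, for the 10249 protein-coding genes called in both lists (grey) and the 6 called IRF genes (red). Irf1 lies among the higher genes, and the other 5 sit together at 30 to 46 fragments.

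Peaks of the family lay at gene starts, with Irf5 as the exception. Of the 8 members, 7 had the summit of their best peak within 1 kb of the gene start in every library with a peak, and all of these within 500 bp. Among the called members it was 5 of 6, and among all 8383 called genes of known strand it was 72.5%, so this is not shown to be particular to IRFs. Irf3, on chromosome 7 at 44997648 to 45002848, had its summits 213 and 151 bp upstream of the start, and Irf9, on chromosome 14 at 55603985 to 55610030, had them 236 and 198 bp downstream. Summits of the same gene in the 2 libraries were 2 bp (Irf2) to 64 bp (Irf1) apart.

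Irf5, which acts downstream of Toll-like receptors and MyD88, was marked inside the gene. It lies on chromosome 6 at 29526130 to 29541869, on the plus strand. Its peaks ran from 29528800 to 29529466 and from 29528553 to 29529285, with summits 3017 and 3013 bp downstream of the gene start, 4 bp apart. The RefSeq start given for Irf5 was 2522 and 2518 bp away, and none of the upstream window at that start was in a peak. RefSeq lists 1 start for Irf5 here although it has several transcripts, so a start nearer to the peak may be missing from that table.

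Irf2, the antagonist of IRF1 at shared sites, was the only member with several recurring peaks. Over its 107.7 kb on chromosome 8 (46739745 to 46847458) it held 3 peaks in PPP2CA 1 and 4 in PPP2CA 2. At the start the summits were 46 and 48 bp downstream of the first base. A second pair, at 1537 and 1538 bp, held 32 fragments in each library. Another place, 79394 and 78822 bp into the gene, was lower at 7 and 10 fragments, and the peaks shared only 130 bp. One more, 25509 bp into the gene with 14 fragments, was found in PPP2CA 2 alone.

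**Figure D3:**
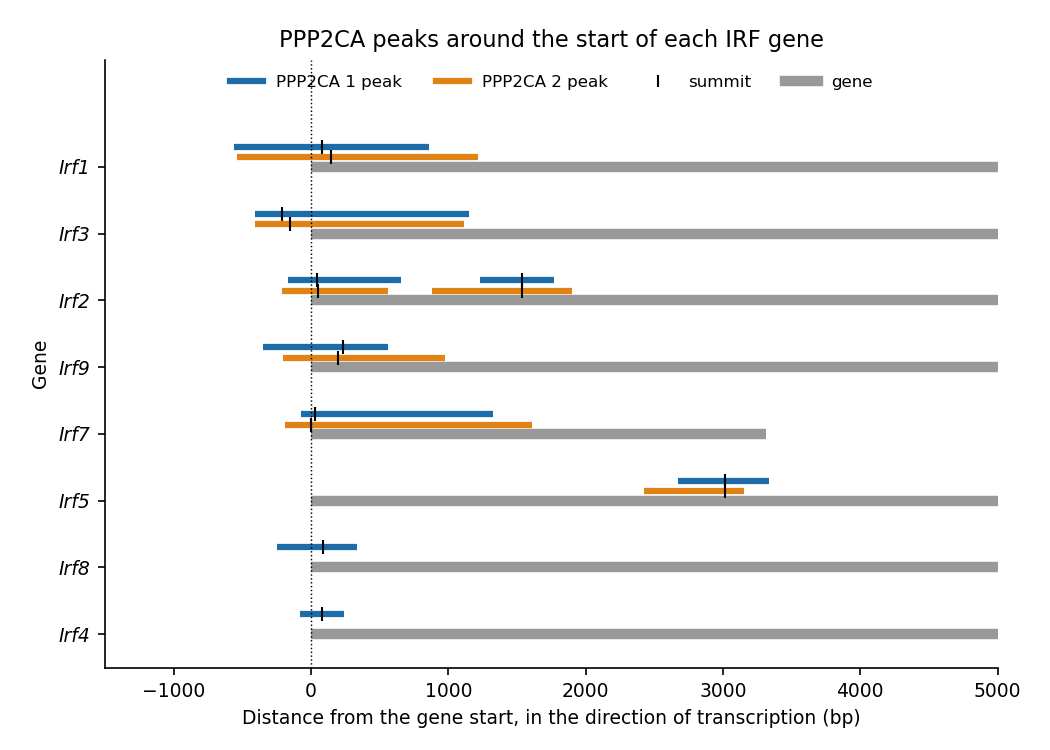
PPP2CA peaks (coloured bars) and their summits (black ticks) by distance from the gene start in bp (x axis), for each IRF gene (rows, gene in grey, cut at 5 kb). Peaks straddle the start at 7 genes, while that of Irf5 has its summits 3013 and 3017 bp downstream. The 2 more distant Irf2 places and the peak past the end of Irf1 lie beyond the axis.

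Some of these peaks also lay within 1 kb of a boundary of a neighbouring gene. The Irf3 peak covered the divergent start of Bcl2l12, a gene of the BCL2 family on the minus strand that starts at 44997638, 10 bp before the first base of Irf3, and the peak cannot be assigned to 1 of the 2. Its summits were 203 and 141 bp from the start of Bcl2l12, about as near as to that of Irf3. At Irf2 the lncRNA gene Gm16675, on the minus strand, had its divergent start 276 and 278 bp from the summits. The summits were 46 and 48 bp from the start of Irf2. The peaks began at 46739581 and 46739532 and did not reach the start of Gm16675, at 46739515. At Irf9 the end of Rnf31, which encodes a subunit of the linear ubiquitin ligase, was 547 and 509 bp away. No other gene had a boundary within 1 kb of a peak at Irf1, Irf4, Irf5, Irf7 or Irf8.

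Irf8 and Irf4, the members with lineage-restricted roles in myeloid and lymphoid cells, had the lowest best peaks of the family, and these were not found in PPP2CA 2. The Irf8 peak of PPP2CA 1 (chromosome 8, 120736110 to 120736692) held 14 fragments (7.65 to 23.5) at a fold of 4.43 and ranked 11787, and the Irf4 peak (chromosome 13, 30749150 to 30749477) held 10 fragments (4.80 to 18.4) at a fold of 5.76 and ranked 10604. Both had their summit close to the gene start, 85 and 84 bp downstream. The nearest peak of PPP2CA 2 was 33.1 and 36.4 kb away. Recurrence depends on height in these lists: of the PPP2CA 1 peaks within 2 fragments of the Irf8 summit, 73.4% of 2947 overlapped a PPP2CA 2 peak, and within 2 of the Irf4 summit 51.5% of 3767 did. For the 6 called members the same share was 96.8% to 100%. The lowest summit called anywhere in PPP2CA 2 held 5 fragments, which is not the limit at a given gene, because the local background differs. In PPP2CA 1 that background was 0.911 fragments at Irf4 and 2.38 at Irf8. The list of PPP2CA 2 holds no value at either gene, so a low signal there cannot be told from none.

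No IgG peak lay within 1 kb of any of the 8 genes, where 1.46% and 0.721% of all protein-coding genes had one in IgG 1 and IgG 2. The nearest ones were 10.8 kb from Irf3 (IgG 2) and 39.3 kb from Irf8 (IgG 1). How much this says depends on the height of the PPP2CA peak. Scaled by the genome backgrounds, a signal as high as that of Irf1 would be 12.1 to 12.5 fragments at IgG depth, with a −log10 p of 7.52 to 7.98, above the lowest called in the IgG lists (5.14 and 5.43). No peak was listed there in either IgG library. For the other 5 called members an equal signal would be 3.19 to 4.92 fragments with a −log10 p of 2.76 to 4.47, below those lowest values. These p values take the local background of the PPP2CA peak, scaled the same way, which was 0.38 to 0.806 fragments at these 5. The IgG genome level was 0.0839 and 0.0833, and IgG summits of 3 fragments were listed. Whether such a signal would have been listed therefore depends on the IgG local background there, which is not known. For Irf4 and Irf8 it would be 1.06 to 1.5 fragments, below the lowest listed IgG summit.

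The members differed widely in the number of CpG in their promoters. Over the 250 bases before each listed start, and taking the highest count where a gene has several, Irf1 had 35 CpG, Irf8 29, Irf5 25, Irf2 17, Irf3 16, Irf4 11, Irf9 7 and Irf7 3. The other listed windows of Irf1, Irf8 and Irf9 held 25, 8 and 1. The median over all 21263 promoter windows of protein-coding genes was 10, with each window counted singly and no highest taken per gene. Genes with 10 or more CpG were called in 73.5% of cases and those with fewer in 18.9%, a grouping made after the values were seen. Both members in the CpG-poor class, Irf7 and Irf9, were called, while of the 6 in the CpG-rich class 4 were, Irf8 and Irf4 being the ones that were not. With 3 CpG, Irf7, the amplifier of type I interferon production, fell in the bin of 0 to 4 CpG, of which 10.0% of 5616 genes were called.

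**Figure D4:**
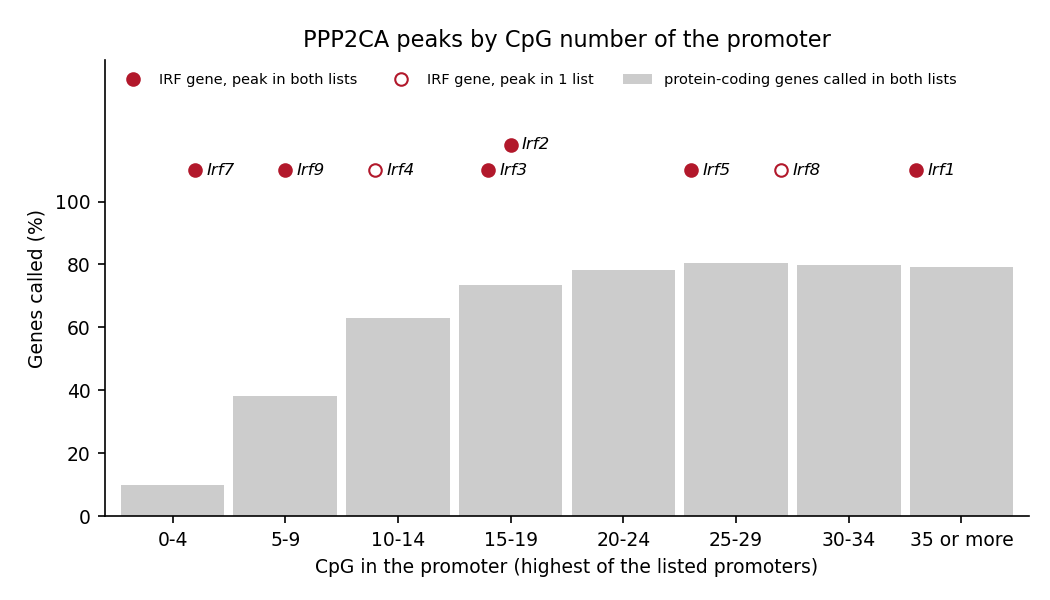
Percent of protein-coding genes called in both PPP2CA lists (bars, y axis) by the number of CpG in the promoter (x axis), with the CpG number of each IRF gene marked above the bars at a height that carries no value (filled, peak in both lists; open, peak in 1 list). The share rises from 10.0% at 0 to 4 CpG to 79.2% at 35 or more, and Irf7 and Irf9 are called from the bins of low share.

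Gene length also moved with calling. Of all genes shorter than 10 kb 31.8% were called, of those of 10 to 50 kb 54.9%, and of longer ones 57.1%. The called IRF genes were mostly short: all 4 members under 10 kb (Irf1, Irf3, Irf7 and Irf9) were called, 1 of 3 from 10 to 50 kb (Irf5, not Irf4 or Irf8), and the 1 longer gene, Irf2. The part of CpG number or length in the calls at these genes was not tested.

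The promoter windows held few of the motifs searched, and matches were found both at called members and at Irf4 and Irf8. The ISRE core was found in 2.96% of all windows and in 1 member, Irf2, at bases −241 to −232 before the start. The GAS element, in 6.58% of all windows, was present in Irf1 at −90 to −82, in Irf2 at −224 to −216, and at 2 places in Irf8, −171 to −163 and −153 to −145. The ISRE and GAS matches of Irf2 lay outside its peaks, which held only the 164 (PPP2CA 1) and 213 (PPP2CA 2) window bases nearest the start. The NF-kappaB core, in 19.6% of all windows, matched in Irf1 at −13 to −4, Irf8 at −58 to −49 and Irf4 at −182 to −173. The Irf4 match lay outside its PPP2CA 1 peak, which held only the 83 window bases nearest the start. The GAS and NF-kappaB matches of Irf1 lay inside the peaks of both libraries, and those of Irf8 inside its PPP2CA 1 peak. The windows of Irf3, Irf5, Irf7 and Irf9 held none of the 3. No match overlapped another. The GC box GGGCGG, in 42.6% of all windows, was present in a window of every member but Irf7. A match describes these letters only.

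The genes that act before and after IRFs were read in the same way, against the same 47.1%. Among the sensors of nucleic acids and microbes 6 of 11 were called, led by Ifih1, the RNA sensor MDA5 (23 and 32 fragments), and Zbp1 (10 and 9), and Tlr3, Tlr4, Tlr7 and Tlr8 had no PPP2CA peak. Only Ifih1 of this list was still called at a −log10 q of 5 or more. Of the adaptors and kinases that lead to IRF phosphorylation 13 of 14 were called, with Azi2 (107 and 125 fragments) and Tank (70 and 84), both adaptors of the kinase TBK1, at the top, and Ikbke had a peak in 1 list. At Azi2 and Tank the fold was 12.6 and 13.2, and 11.6 and 10.8, above that of every IRF gene. The Azi2 peak is also the best peak of the neighbouring gene Zcwpw2 in both lists and cannot be assigned to 1 of the 2.

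None of 10 interferon genes had a PPP2CA peak in either list. Of the receptors, JAKs and STATs 9 of 10 were called, led by Ifngr1 (75 and 89 fragments) and Ifnar1 (78 and 65), which encode chains of the type II and type I interferon receptors, and Ifnlr1, of the type III receptor, had a peak in 1 list. Among IRF partners and the IRF2-binding proteins 10 of 11 were called, Batf3 being without a peak. Irf2bp2, a corepressor that binds IRF2, had 115 and 129 fragments, near those of Irf1, and Ep300, the acetyltransferase p300, had 142 and 204. An IgG 2 peak of 4 fragments in the Ep300 window did not overlap its best PPP2CA peak. Nor did an IgG 1 peak of 3 fragments in the window of Sp100, an interferon-stimulated gene, overlap the best PPP2CA peak of that gene. Of 36 interferon-stimulated genes 22 were called, 4 had a peak in 1 list and 10 had none, Isg15, Rsad2 and Oas2 among the latter. Socs1, a feedback inhibitor of JAKs, was the best ranked (71 and 80 fragments), then Psmb9, which shares its peak with Tap1 (55 and 51). Genes of a list are not replicates, and neighbours among them can share a peak. Ifnar2 and Il10rb had the same best-peak values in PPP2CA 2 (48 fragments), as did Dtx3l and Parp9 in both lists (36 and 34). The lists were not matched on CpG number or length.

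**Figure D5:**
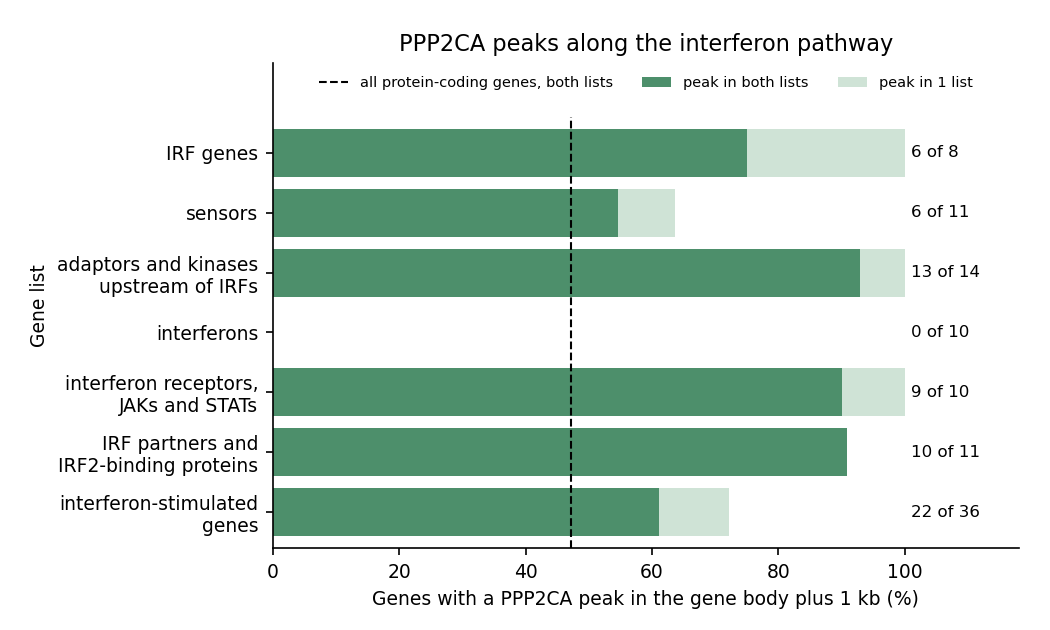
Percent of genes with a PPP2CA peak in both lists (dark) or 1 list (light) on the x axis, for the IRF genes and 6 lists of the interferon pathway (rows), with the number called beside each bar. The dashed line is the 47.1% of all protein-coding genes called, and the interferon genes are at 0 of 10.

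The genes most like Irf1 in their ranks over the 2 PPP2CA lists were C87436, Zbtb1 and Zbtb25, each with rank differences that sum to 29. Zbtb1 and Zbtb25, zinc finger genes on chromosome 12, share a peak of 120 and 122 fragments at a fold of 7.15 and 6.83. At C87436 the summit was lower, 85 and 91 fragments, at a higher fold of 11.1 and 9.97. This likeness is one of rank by −log10 q over 2 libraries.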

How the data were processed

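Each library has its own narrowPeak list. Per the submitters' processing notes, which give no roles, versions or settings, the tools were MACS2, BWA, Trimmomatic, HOMER, ChIPseeker and deepTools, and the genome is named as mm10 and as GRCm38. Whether IgG was the control for peak calling was not given in the sources used here. Each deposited peak has a fold (a ratio of its summit to local background), a −log10 p and −log10 q, and a deposited score that equals 10 times the −log10 q within 1 for 100% of peaks. Samples were grouped by their titles.

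Summit fragments and local background were recovered by taking the fold as (fragments + 1) / (background + 1) and p as a Poisson tail. Whole fragments were found for 100% of peaks in each list, and the largest relative error was 9e-06. The recovery was tested on values simulated with the same formulas, which checks the inversion and not the formulas. The overlaps were tested on peaks placed at known distances from genes. Genes came from a RefSeq table of GRCm38.p6 without entries placed below 3 Mb (except on Y), and strand and starts from a RefSeq promoter table that covers 17492 of 21779 protein-coding genes. Python 3.11.15, pandas 2.3.3 and scipy 1.17.1 were used. Alternatives were a −log10 q of 5 or more, at least 20 summit fragments, other windows, summit overlap, leaving out each library and leaving out PPP2CA peaks with an IgG peak.

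Members and lists were chosen with earlier results of these data known. The genes named were every member, the 2 best-ranked called genes of each list by the worse rank, neighbours sharing a peak, and the 3 genes nearest Irf1 in rank. Genes without a peak that are named, and Tap1, Ikbke, Ifnlr1, Ifnar2, Il10rb, Dtx3l, Parp9 and Sp100, were picked after their values were seen. Of the listed symbols, Mx1, Mx2 and Ly76 matched no protein-coding entry, and 2 are not reported here.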

Additional observations from a re-analysis of the deposited data

How the results depend on the processing

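No paired analysis was possible because the results come from counts of peaks with no test. Irf1, Irf2, Irf3, Irf7 and Irf9 were called under every alternative that used both PPP2CA lists. Irf5 was called under all of these but the window of 1 kb around gene boundaries, where 5 of 8 members were called. A member called in both lists keeps its peak with either list alone, so leaving out a library could not remove it. With PPP2CA 1 alone 8 members had a peak, and with PPP2CA 2 alone 6. Over the alternatives, those with a single PPP2CA list included, 30.5% to 52.4% of all protein-coding genes had a peak by the rule used. No IgG peak was found at a member in any alternative run, 5 kb on each side included. The sensor list fell from 6 to 1 called gene with a −log10 q of 5 or more and to 1 with at least 20 summit fragments, and with the latter the interferon-stimulated genes had 14 in place of 22. Within 5 kb 2 interferon genes were called in place of 0. The median over the called members of the lower summit of the 2 libraries was 34, and 37.5 to 39.0 with each library alone, which takes away the choice of the lower value. Taking the best peak by fold moved the lower Irf2 summit from 34 to 10 fragments, the place deep inside that gene. The member heights and their local backgrounds were both scaled to the depth of the IgG libraries. By this rule only the height of Irf1 reached the lowest −log10 p of the IgG lists. Other backgrounds, and heights between the members', were not computed.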
